A study of Homo sapiens with 2 samples.

Results

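Of the 7643 peaks that the authors called in an RNA immunoprecipitation (RIP-seq) of Huh-7 cells, 1333 (17.4%, exact 95% interval 16.6 to 18.3) lay within a single shorter internal exon. Each peak was given to the gene with which it shared most exonic bases on its own strand, after the listed exons of each gene had been merged where they overlapped. A peak was kept when it touched only 1 merged exon, when that exon was neither the first nor the last of the gene, and when it was under 1000 bases long. The kept peaks fell in 1258 exons of 957 genes. Of the other deposited peaks, 3718 crossed several exons, 1200 lay in last exons, 850 in internal exons of 1000 bases or more, 432 in first exons and 110 in genes with 1 merged exon.

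Huh-7 is an established hepatocellular carcinoma line, labelled here as liver cancer cells of WT genotype. The series holds 1 library of immunoprecipitated RNA (IP), whose treatment label reads SPSF7 Q16629, and 1 input library, whose treatment label reads none. Per the design text 90% of the lysate went into an IP with an antibody to SRSF7 and 10% into the input, whereas the sample protocol of both libraries names an antibody to YTHDF2 and poly(A) selection. Which antibody was used is not settled by the labels, and the groups are called IP and input throughout. With 1 library a group there was no replicate, so that no comparison below has a test, and the intervals cover counting error only.

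Most internal exons of human genes are short, and the splicing machinery recognises them as units between a 3′ and a 5′ splice site. SR proteins, the family of SRSF7, bind short sequences inside such exons, recruit the spliceosome to the flanking splice sites and stay with the mRNA during export. YTHDF2 is a cytoplasmic reader of N6-methyladenosine, a mark of long internal exons and of the region around stop codons, and it promotes decay of the mRNAs it binds.

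Sequence could be shown for the members that also lay over a RefSeq promoter window, which runs from 250 bases before to 50 bases after an annotated gene start. Of the 1333 peaks, 25 (1.88%) overlapped such a window, and 22 of them overlapped one of their own gene, so that an exon counted as internal in the merged model holds or adjoins a start in RefSeq. The 4 of these 22 with the highest folds are shown, followed by HNRNPUL1, an hnRNP-type RNA-binding protein, and MCM7, a subunit of the replicative helicase, as members with low folds. The windows of NR1H2 (chr19:50376207-50376506, plus strand), PPP1R37 (chr19:45092929-45093228, plus), CYTH1 (chr17:78736853-78737152, minus), RABEP2 (chr16:28925189-28925488, minus), HNRNPUL1 (chr19:41264831-41265130, plus) and MCM7 (chr7:100100705-100101004, minus) are from RefSeq GRCh38.p14. Each is written 5′ to 3′ on the strand of the gene, with the bases inside the peak in capitals.
NR1H2: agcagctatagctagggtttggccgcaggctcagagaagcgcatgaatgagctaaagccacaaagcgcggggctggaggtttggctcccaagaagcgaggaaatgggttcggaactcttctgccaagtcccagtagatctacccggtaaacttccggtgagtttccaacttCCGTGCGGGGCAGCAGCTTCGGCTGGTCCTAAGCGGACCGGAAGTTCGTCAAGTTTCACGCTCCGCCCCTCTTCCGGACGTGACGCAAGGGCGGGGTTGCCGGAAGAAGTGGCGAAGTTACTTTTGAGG
PPP1R37: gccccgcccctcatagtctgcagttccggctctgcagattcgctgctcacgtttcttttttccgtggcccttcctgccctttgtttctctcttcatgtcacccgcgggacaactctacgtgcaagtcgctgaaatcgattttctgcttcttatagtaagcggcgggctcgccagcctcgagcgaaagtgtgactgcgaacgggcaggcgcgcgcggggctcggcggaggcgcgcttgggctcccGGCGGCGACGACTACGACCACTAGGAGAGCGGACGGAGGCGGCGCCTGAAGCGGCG
CYTH1: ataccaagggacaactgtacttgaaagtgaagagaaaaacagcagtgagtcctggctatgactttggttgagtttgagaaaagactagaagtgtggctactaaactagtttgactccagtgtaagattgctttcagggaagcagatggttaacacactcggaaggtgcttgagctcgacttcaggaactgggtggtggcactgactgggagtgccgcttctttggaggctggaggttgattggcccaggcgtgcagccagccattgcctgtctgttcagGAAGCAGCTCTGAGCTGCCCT
RABEP2: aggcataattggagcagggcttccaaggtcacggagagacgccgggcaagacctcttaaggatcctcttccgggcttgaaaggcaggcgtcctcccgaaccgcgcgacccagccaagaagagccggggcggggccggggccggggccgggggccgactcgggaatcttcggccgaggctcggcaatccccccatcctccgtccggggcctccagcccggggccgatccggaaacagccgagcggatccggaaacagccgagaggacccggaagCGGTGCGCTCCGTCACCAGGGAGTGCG
HNRNPUL1: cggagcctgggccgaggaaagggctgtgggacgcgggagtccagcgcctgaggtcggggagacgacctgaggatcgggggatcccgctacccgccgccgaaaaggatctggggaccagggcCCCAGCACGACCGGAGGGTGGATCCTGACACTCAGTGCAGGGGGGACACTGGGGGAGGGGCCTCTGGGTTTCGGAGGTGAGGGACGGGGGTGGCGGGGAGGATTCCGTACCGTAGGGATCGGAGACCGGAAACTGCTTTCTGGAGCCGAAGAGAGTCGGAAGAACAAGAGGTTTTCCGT
MCM7: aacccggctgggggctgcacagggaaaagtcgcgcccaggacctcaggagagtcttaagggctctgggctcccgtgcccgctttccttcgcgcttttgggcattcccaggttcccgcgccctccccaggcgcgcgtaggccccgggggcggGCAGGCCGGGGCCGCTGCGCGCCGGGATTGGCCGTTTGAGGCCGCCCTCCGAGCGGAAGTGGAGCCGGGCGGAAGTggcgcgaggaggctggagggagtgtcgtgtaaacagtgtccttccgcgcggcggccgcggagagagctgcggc
The peak of NR1H2 began inside the window and took its last 129 bases, with a GC content of 62.8%. In PPP1R37 the peak took the last 56 bases, of which 73.2% were G or C. HNRNPUL1 had 179 bases of its window inside the peak, and MCM7 had 76 bases in the middle of the window. CYTH1 and RABEP2 had 21 and 27 bases of peak at the downstream end.

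Short motifs were searched in 22 windows, 1 per peak, on both strands, so that matches on the strand opposite the gene are counted too. MCM7 and PPP1R12A each had a second window that was left out, and both of those held GGACT but neither of the other motifs. GACGAC, the type of site described for SRSF7, or its variant GACGAT, or the further variants spelled GATGAC and, with both changes, GATGAT, was found in 8 of 22 (36.4%, exact 95% interval 17.2 to 59.3), against 21.1% of all 35116 windows of 300 bases. GAAGAA, a purine-rich exonic enhancer sequence, was in 4 of 22 (18.2%), against 19.8% of all windows. GGACT, the common form of the m6A consensus in DNA letters, was in 12 of 22 (54.5%), against 44.2%. The windows under the peaks had a median GC content of 66.0%, against 58.7% over all windows, and no set of windows matched on GC content was compared. Whole windows were searched, and most of their bases lie before the gene start, so that these shares describe windows and not the peaks. On the strand of the gene, the window bases inside the peak held a GACGAC-type motif in PPP1R37 only. They held GAAGAA in NR1H2 and HNRNPUL1 only, and GGACT in DYRK1A, PRCC and PRKRIP1 only.

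The libraries held 5897293 reads assigned to genes in the IP and 2782045 in the input. Liver markers were abundant in both. All 10 hepatocyte markers were measured above a mean of 1 RPKM (reads scaled by exon length and by the assigned reads of the library), among them AFP with 1613 RPKM in the IP and 2814 in the input and ALB with 655 and 944. The summed level of 8 measured erythroid genes was 699 RPKM in the IP and 1057 in the input, of which HBB made 467 and 738. That of 6 cholangiocyte genes was 214 and 117 RPKM, of which SOX9 made 118 and 23.0. That of 5 measured endothelial genes was 2.98 and 4.19 RPKM and that of 7 fibroblast or stellate genes 4.56 and 3.60, and that of 12 immune genes was 95.5 and 164. None of the peaks described here lay in a gene of the cholangiocyte, endothelial, fibroblast, immune or erythroid lists, and the part of those genes in the results was not tested. Per the design text both libraries were parts of the same lysate of this line, so that their cells were the same. The source of the RNA of markers of other cell types was not tested.

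The exons that held the peaks were long for internal exons. Their median length was 278 bases (quartiles 173 and 538.5, n = 1258). The other internal exons under 1000 bases in the same genes had a median of 137 bases when no peak touched them (quartiles 99 and 207, n = 14667), and of 148 bases when only another kind of peak did (n = 3827). Merging joins alternative exons into longer ones, and 41.8% of the exons with a peak had 1 listed form, against 68.2% of those without. An annotated intron lay inside the merged exon in 211 exons with a peak (16.8%) and in 508 without (3.46%). Among exons with 1 form, where merging adds nothing, the medians were 187.5 bases with a peak (n = 526) and 120 without (n = 10004).

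The share of exons with a peak was higher at every step of exon length in these genes. It was 1.06% at 51 to 100 bases (42 of 3958 exons), 2.80% at 101 to 150, 6.43% at 151 to 200, 8.92% at 201 to 300, 13.0% at 301 to 500 and 27.0% at 501 to 999 bases (357 of 1324). In exons with 1 form the same shares were 1.17%, 2.50%, 6.11%, 7.72%, 13.7% and 25.4%. A longer exon offers more bases to a peak. Per megabase of exon the numbers of peaks were 133, 227, 375, 385, 353 and 453 in the same order of lengths, so that they were lowest in the shortest exons and lay between 353 and 453 from 151 bases on. A peak of 50 bases or more hardly fits in the shortest exons without touching the next exon, which puts it with the peaks across several exons, so that the rule itself lowers the values there. These genes were taken because they hold such a peak, which raises all of these values. Over all genes that averaged 1 RPKM or more, 1.07% of 117014 internal exons under 1000 bases held a peak. By length, in the same order, the shares there were 0.144%, 0.501%, 1.14%, 1.75%, 2.17% and 4.63%. The peaks per megabase there were 18.2, 40.3, 66.6, 75.2, 58.5 and 78.1. Among exons with 1 form, 42.0% of those with a peak had a length that is a multiple of 3, against 42.9% without.

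**Figure D1:**
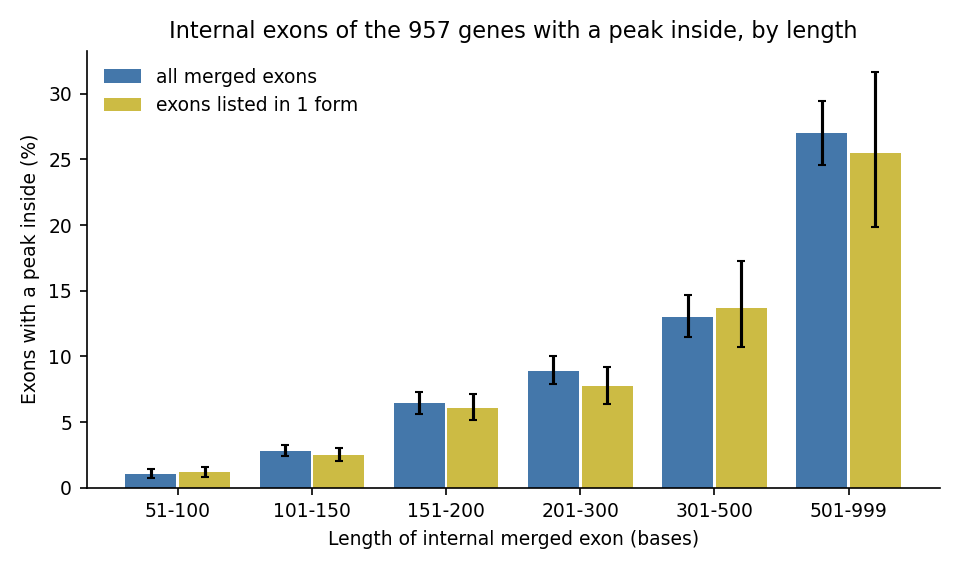
Share of internal exons under 1000 bases that hold a peak, in % with exact 95% intervals, by exon length in bases, for all merged exons and for exons with 1 listed form of the 957 genes. Over all merged exons of these genes the share goes from 1.06% at 51 to 100 bases to 27.0% at 501 to 999 bases. The 957 genes were taken because they hold such a peak, which raises the shares.

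The peaks were much shorter than their exons. They had a median of 76 exonic bases (quartiles 51 and 126, from 50 to 739), and 510 (38.3%) spanned exactly 51 bases, 273 exactly 76 and 149 exactly 101. A median of 30.5% of the exon was covered, and 302 peaks (22.7%) covered 50% or more. Peak centres lay near the middle of the exon: with the exon divided into 3 equal parts, 50.7% of them were in the middle part, 23.8% in the 5′ part and 25.5% in the 3′ part. The median distance to the 5′ end of the exon was 81 bases and to the 3′ end 73 bases, and 31 peaks (2.33%) reached an end. A peak that must stay inside 1 exon cannot be centred on its edge, so that the middle part is favoured by the rule itself. Each listed form of the exon contained the whole peak for 744 peaks (55.8%), and no form did for 19 (1.43%). In 71 exons there was more than 1 peak. Among the 75 neighbouring pairs in such exons 35 were 24 bases apart, which was the smallest gap, and the largest was 449 bases.

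Along the gene, the peaks lay at a median of exon 10 in genes with a median of 21 merged exons, and the quartiles of their place in the exon order were 27.3% and 73.3% of the way through the gene. The second exon held 127 of them (9.53%), while 4.87% of the internal shorter exons of these genes are second exons. The second-to-last exon held 113 (8.48%), against 4.58%. Peaks in second exons lay in longer exons, with a median of 510 bases against 266 away from both ends of the gene. A peak of any kind also touched a neighbouring exon for 611 members (45.8%), and both neighbours for 124 (9.30%). RefSeq placed the gene start inside the exon for 39 of 1305 members in matched genes (2.99%) and the gene end for 8 (0.613%).

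In the authors' deposited table the folds of these peaks were modest, with a median of 2.54 (quartiles 2.28 and 3.25, from 2.00 to 67.8). The medians of the other kinds were 2.68 for peaks across several exons, 2.80 for long internal exons, 2.83 for first exons and 2.86 for last exons. A fold of 3 or more was reached by 392 peaks (29.4%, against 37.0% of all deposited peaks). The deposited false discovery rate was above 0.05 for 600 (45.0%, against 39.7%). That share was 43.6% in long internal exons, 44.7% in first exons, 46.25% in last exons and 34.3% across several exons. Folds were lower where the gene had more input reads. When the peaks were divided into 4 groups of about equal size by the input reads of their gene, from the fewest reads to the most, the median deposited fold was 3.12, 2.60, 2.46 and 2.34, and the median deposited p was 0.0256, 0.0195, 0.0112 and 0.00293.

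**Figure D2:**
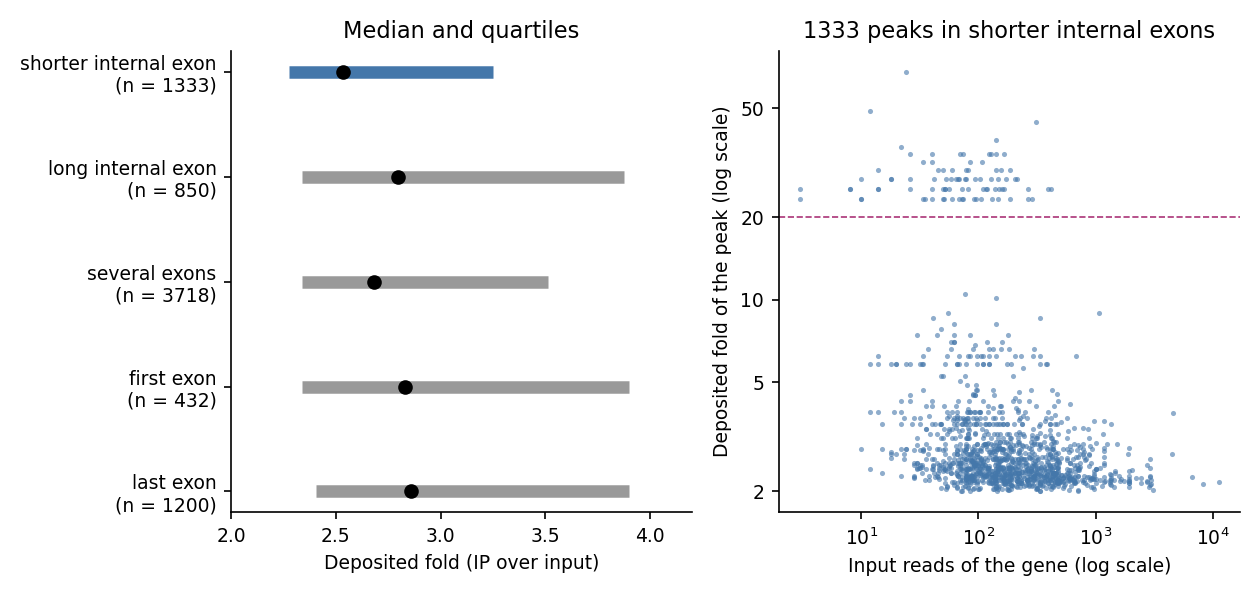
Deposited folds of peaks by kind of exon (points, medians; bars, quartiles), as well as the fold of each of the 1333 peaks in shorter internal exons against the input reads of its gene (both log scales, dashed line at 20). Folds are higher and more spread where the gene has few input reads.

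A fold above 20 was given to 88 peaks in 80 genes (6.60%, against 5.10% of all deposited peaks), and these stood apart. The highest deposited fold below them was 10.5 and the lowest among them 23.3. They took only 11 distinct values, whole multiples from 11 to 32 of a step of 2.1202, within 0.00017 of a step. The total of assigned IP reads over that of the input was 2.1198, the same to 3 digits. The deposited p of the 88 also took only 11 distinct values. GTSE1, POLE and EHMT1, for example, shared both a deposited fold of 33.9 and a deposited p of 0.00707. What a fold of this kind measures is not known here, so that the order of genes below is one of deposited values only. Genes with one of these peaks had a median of 73.5 input reads, against 145 for genes with a lower fold. Second exons held 17 of the 88 (19.3%), against 8.84% of the peaks with lower folds, and a RefSeq start lay in the exon of 8 of 85 (9.41%), against 2.54%.

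**Figure D3:**
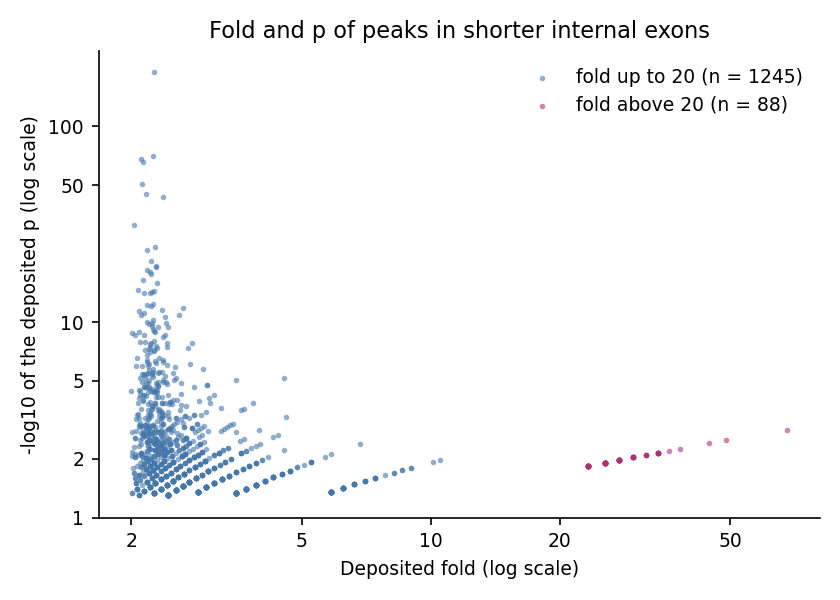
Deposited fold (log scale) and -log10 of the deposited p (log scale) of the 1333 peaks. The 88 folds above 20 lie apart from the others, whose highest fold is 10.5, and their p lie between 0.00154 and 0.0147.

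The highest deposited fold, 67.8 with a p of 0.00154, belonged to exon 7 of 14 of NR1H2 (chr19:50376378-50376653), the oxysterol receptor LXR-beta, a regulator of cholesterol efflux. NR1H2 had 168 IP and 24 input reads. PPP1R37, a regulatory subunit of protein phosphatase 1, followed with a deposited fold of 48.8 in exon 3 of 11, and had 134 and 12 reads. Both exons hold the RefSeq start and a listed intron, and the windows of both genes are printed above. EPHB4, the receptor tyrosine kinase for ephrin-B2, had a deposited fold of 44.5 in exon 4 of 17 (chr7:100822393-100822568). That exon has 1 listed form of 397 bases, and the gene had 1397 IP and 308 input reads. MIDEAS, a scaffold of a mitotic histone deacetylase complex, had 2 peaks in its exon 9 of 346 bases, with deposited folds of 38.2 and 33.9.

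Next among the highest folds, KIF18B, a mitotic kinesin, had a deposited fold of 36.0 in exon 12 of 15. The deposited fold was 33.9 for GTSE1, a microtubule regulator of mitosis, for POLE, the catalytic subunit of DNA polymerase epsilon, for EHMT1, a histone H3 lysine 9 methyltransferase, and for TASOR2, TATDN2 and IQCE. KIF18B had 22 input reads, GTSE1 26, POLE 69, IQCE 74, TATDN2 124, TASOR2 127 and EHMT1 166. In these 7 genes only the exons of TATDN2, POLE and TASOR2 had more than 1 listed form. Exon bases are shared with another gene in TATDN2 and EHMT1, and their reads may be counted for both.

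The smallest deposited p-values came from abundant mRNAs and went with folds near 2. HSP90AB1, the constitutive cytosolic HSP90 chaperone, had a peak of 76 bases in exon 7 of 14 (chr6:44250041-44250116), an exon of 134 bases with 1 form. In the authors' deposited table its fold was 2.26 and its p 2.71e-190. The gene had 31564 IP and 6561 input reads, and its RPKM ratio of IP to input was 2.27. HSP90AA1, the inducible HSP90, had a deposited fold of 2.13 and a p of 1.57e-66 in exon 9 of 11, with 46747 and 8108 reads. ANP32B, an acidic histone chaperone, had a deposited fold of 2.25 with a p of 1.39e-71, and CALD1, the actin-binding protein caldesmon, one of 2.10 with a p of 1.98e-68. In these 4 genes the fold of the peak was close to or below the ratio of the whole gene, which was 2.72 for HSP90AA1, 2.18 for ANP32B and 2.66 for CALD1. How the deposited folds were scaled is not known, so that folds and RPKM ratios may be on different scales. Whether the peaks stood out within their genes cannot be read from these values.

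SUPT5H, a subunit of the elongation factor DSIF, had its 2 best peaks in adjacent exons, exon 7 (deposited fold 2.17, p 7.19e-46) and exon 8 (2.12, p 1.34e-51) of 35. GNAS, the stimulatory G protein alpha subunit, had a deposited fold of 2.37 over 276 bases of exon 11. Among secretory chaperones, HSPA5 (BiP) had a deposited fold of 2.03 over 301 of 391 bases of exon 5 and HYOU1 one of 2.27 in exon 14. The list was completed by MAP4K4, a stress kinase (2.18), NOP14, a factor of small ribosomal subunit assembly (2.22), and SMARCC1, a core subunit of the BAF remodelling complex (2.28), all as deposited folds. Of all 1333 peaks, 35 in 32 genes had a deposited p of at most 1e-10.

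In most genes there was 1 such peak (701 of 957), with 2 in 178, 3 in 55 and 4 or more in 23. LRP1, HUWE1 and NCOR1 had 7 each. LRP1, the endocytic receptor for lipoprotein remnants in the liver, had its 7 in 7 different exons between exon 25 and exon 85 of 89. Their deposited folds ran only from 2.07 to 2.38 and each exon had 1 form, of 102 to 378 bases. HUWE1, a giant HECT ubiquitin ligase, had them in 5 exons, with deposited folds of 2.89 in exon 4, 3.61 in exon 19, 2.17 and 2.67 in exon 69, 2.50 and 2.81 in exon 70 and 2.26 in exon 85 of 86. The deposited false discovery rate was above 0.05 for the lower fold of exon 69, the lower fold of exon 70 and exon 85. NCOR1, the scaffold of a nuclear receptor corepressor complex, had them in exons 21, 36, 37, 38, 39, 46 and 50 of 52, so that 4 adjacent exons each held one. Its deposited folds ran from 2.34 to 3.51, and the deposited false discovery rate was above 0.05 in exons 39 (0.0679) and 46 (0.0820).

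BPTF, the largest subunit of the NURF remodeller, had 6 peaks in 5 exons, with deposited folds of 6.63 and 2.21 in exon 2. The deposited false discovery rates of those in exon 2 were 0.0709 and 0.0755, and the rates in exons 8 and 11 were also above 0.05. HSPG2, the basement membrane proteoglycan perlecan, had 6 in exons 4 to 80 of 99, including the one with most exonic bases of all 1333, which covered 739 of 959 bases of exon 80 (deposited fold 2.96). In HSPG2 only the peak of exon 80 had a deposited false discovery rate below 0.05 (0.0398). Those of its other peaks ran from 0.0510 to 0.0820. MYO9B, an unconventional myosin, had pairs in exons 2 and 24 and 1 peak in exon 30. PTPRF, a receptor tyrosine phosphatase, had 5, with deposited folds from 2.15 to 2.96. FGFR3, a growth factor receptor kinase, had 5 in exons 3, 5, 7, 10 and 11 of 18, the highest in exon 5 (4.60). MYH9, the non-muscle myosin heavy chain, had 4, with deposited folds from 2.26 to 2.63. Some peaks of MYO9B, PTPRF and FGFR3 also had a deposited false discovery rate above 0.05, whereas all those of LRP1 and MYH9 were below it. The RPKM ratios of these 9 genes ran from 1.87 in HSPG2 to 3.61 in MYO9B.

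**Figure D4:**
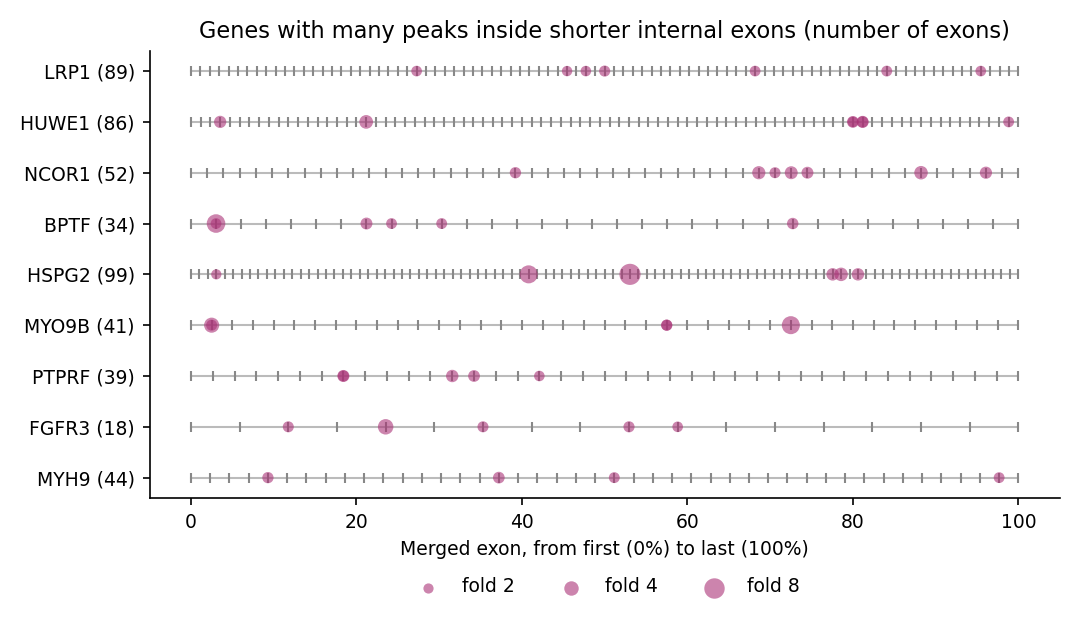
Merged exons (ticks) of 9 genes with many peaks in shorter internal exons, evenly spaced from the first (0%) to the last (100%), with a dot for each peak whose area follows its deposited fold. The 7 peaks of LRP1 lie in 7 exons, whereas HUWE1 has 7 peaks in 5 exons.

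Splicing factors held some of the peaks, in a few exons each. Of 14 SR protein genes 2 did, in 2 of 50 internal exons (4.0%, exact 95% interval 0.488 to 13.7, against 1.07% of all exons). SRSF11 had a peak in exon 2 of 14, an exon of 470 bases with a listed intron, at a deposited fold of 8.97 (p 0.0159). TRA2B, which binds GAA-rich enhancers, had one in exon 3 of 9, also with a listed intron, at 2.25, while its RPKM ratio was 0.93. SRSF7 and YTHDF2 themselves had no such peak. Among 19 SR-related genes 5 had 6 peaks, in 2.76% of their exons (interval 1.02 to 5.92), namely SON (deposited fold 2.90), SRRM2 (2.80), BCLAF1 (2.49), ACIN1 (2.37 and 2.34) and THRAP3 (2.20). SRRM2, a large serine- and arginine-rich spliceosome protein, had 5738 IP and 797 input reads. Of 25 hnRNP genes 2 had peaks, in 1.60% of their exons (interval 0.330 to 4.59), HNRNPM at 2.87 and 2.16 in 1 exon and HNRNPUL1 at 2.24 and 2.02 in exons 14 and 4. Core spliceosome genes had 11 peaks in 8 of 32 genes and 2.17% of exons (interval 1.09 to 3.84), with the highest deposited folds in PRPF8 (3.02) and SNRNP200 (2.83), both of the U5 snRNP.

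The share of internal exons with a peak, given here for each list without a test, was above the share over all exons in most lists named below. No list was matched on exon length or on the reads of its genes, here or in the paragraphs before and after. Over all genes that averaged 1 RPKM or more, the share ran from 0.144% to 4.63% by exon length. What part exon length or depth had in the shares of the lists was not tested. Chromatin remodellers and modifiers had 50 peaks in 25 of 49 genes and 47 of 1465 exons (3.21%, exact 95% interval 2.37 to 4.24), against 1.07% of all exons. EHMT1 and TRRAP, a scaffold of acetyltransferase complexes, had the highest deposited folds there (33.9 and 27.6), and ASH1L the lowest (2.03). Giant cytoskeletal and scaffold genes had 36 peaks in 16 of 33 genes (2.44% of exons), among them SYNE2 at 25.4 and DST at 2.03. DNA replication and mitosis genes had 20 in 12 of 38 (2.54%), LRP family and matrix genes 20 in 7 of 24 (2.50%), and giant ubiquitin ligases 22 in 10 of 20 (1.90%). Genes of cholesterol and fatty acid synthesis had 10 peaks in 5 of 21 genes (3.01%), including LSS, the lanosterol synthase (deposited fold 3.28), and SREBF1 and SREBF2, the regulators of the pathway (3.70 and 2.05). Translation factors had 9 peaks in 6 of 25 genes (2.03%), RNA polymerase II and Mediator 10 in 6 of 24 (1.91%) and aminoacyl-tRNA synthetases 7 in 3 of 20 (1.90%). Nuclear pore genes had 5 in 4 of 25 and a share of 0.739%, which is below that over all exons, but its interval (0.240 to 1.72) includes 1.07%. The intervals of the translation, polymerase and synthetase lists include it as well.

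Hepatocyte secreted proteins, among the most abundant mRNAs of the line, had no such peak in 32 genes, although they had 17 peaks of other kinds. None of their 377 internal exons held one, which allows a share of up to 0.796% by the limit of 3 counts and 0.974% by the exact interval. Nuclear-encoded respiratory chain genes had none in 177 exons, which allows up to 1.69% by 3 counts and 2.06% by the exact interval. Among 40 cytosolic ribosomal protein genes RPL6 alone had one (deposited fold 2.16), in an exon of 601 bases with 9 listed forms. That is 1 of the 83 internal exons of the list (1.20%, interval 0.0305 to 6.53). HNF4A, a master regulator of hepatocyte genes, had 2, in exons 8 and 10 of 13 (2.26 and 2.18), each of 156 bases. YTHDC1, the nuclear m6A reader, was the single gene of 19 for m6A (deposited fold 2.41, p 1.44e-10). That is 1 of the 189 internal exons of the list (0.529%, interval 0.0134 to 2.91), against 1.07% of all exons. Immediate early and stress genes had 3 peaks in 2 of 22 genes, with deposited folds from 2.73 to 3.61. They lay in 2 of 20 internal exons (10.0%, interval 1.23 to 31.7).

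Genes with a peak in a shorter internal exon were higher in the IP as a whole. The peaks were called from the same 2 libraries, so that these values describe the genes and are no independent support. The median log2 ratio of IP to input, on log2(RPKM + 1), was 0.78 over the 949 of 957 genes that averaged 1 RPKM or more. It was 0.66 in 2064 genes with other peaks only, -0.04 in 11044 genes without a peak and 0.14 over all 14057. At least 2-fold higher were 287 genes (30.2%, against 11.3% of all genes tested), and 2 were at least 2-fold lower (against 8.25%). With each library scaled to the same sum of RPKM, the median over all genes moved to 0.99 and 907 of the 949 passed. The split of higher and lower calls over all genes went from 57.9% higher to 95.2% with that scaling and to 44.6% when centred on the median of all genes. The genes were also better covered, with a median of 140 input reads against 43 over all genes, and longer, with 6964 against 3712 exonic bases.

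**Figure D5:**
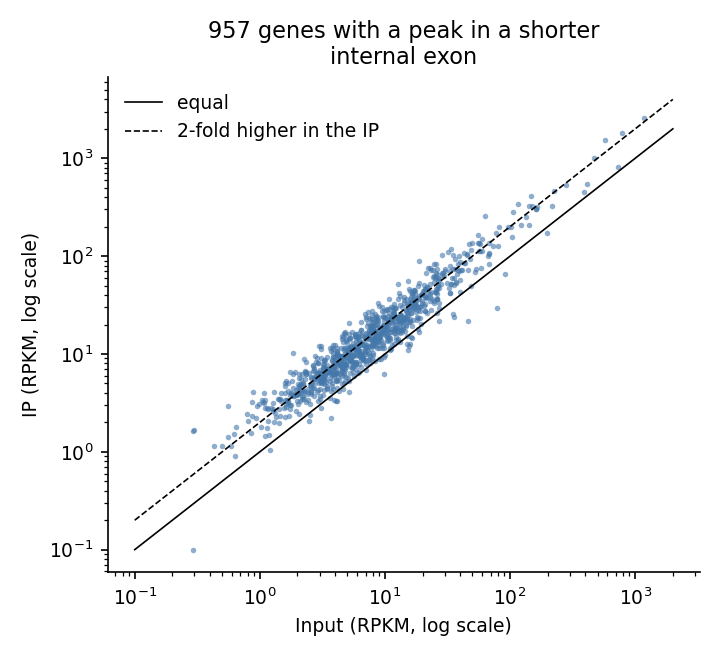
RPKM in the IP against RPKM in the input (both log scales) of the 957 genes with a peak in a shorter internal exon, with lines for equal values and for 2-fold higher in the IP. Most points lie between the lines or above the upper one, and 287 of 949 genes tested were at least 2-fold higher.

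Just inside the limit of 1000 bases lay peaks of PSMD2, a proteasome subunit (exon of 992 bases, deposited fold 2.23), CDK13 (991 bases, 2.41) and TNRC18 (990 bases, 2.54). Just outside lay PLXNB1 (1003 bases, 2.41), DDX41 (1008 bases, 2.47) and TCEAL4 (1008 bases, 40.3). Some members rest on the annotation. Exon bases were shared with another gene for 202 members (15.2%), a tie between genes was decided by IP reads for 30, and 1 peak of Y_RNA, a name with several loci, spanned 138124 bases with 96 of them exonic.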

How the data were processed

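RNA of 1 IP and 1 input library of Huh-7 cells was analysed, grouped by title. Trimmomatic and STAR 2.5.3a trimmed and aligned the reads, per the submitters' processing notes. What counter, annotation, peak caller, fold scaling and genome build were used is not given in the sources used. Molecular tags are named in the labels, with no word on their use in counting. Gene values are RPKM, deposited by the authors. All were whole multiples of 1 read within 0.01 read (100% in both libraries), which gave the depth and the intervals of ratios. Of 10970 genes with 1 to 20 IP reads 77.3% had an even number, so that reads may not be independent. Each peak has a deposited score, p-value, false discovery rate and fold (a ratio of IP to input), per the file headers. The authors called peaks on the IP against the input, without replicates.

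Of the deposited gene symbols 19414 matched RefSeq GRCh38.p14, 99.95% of them on the same chromosome and 67.0% with the same first or last base. Coordinates are printed as deposited. Promoter windows are credited to RefSeq, and exon sequence was not used here. Exons are those of the deposited gene table, merged per gene, and the assignment was checked on toy gene models with known answers. Genes were compared on log2(RPKM + 1) with a mean of at least 1 RPKM, and shares have exact (Clopper-Pearson) 95% intervals. No p-value was computed. Members, lists and alternatives were chosen with earlier results of these data known. The named peaks are the 12 highest folds at or below the median p, the 12 smallest p, the 10 genes with most peaks, all in SR, SR-related and hnRNP genes, the 2 highest folds and the lowest in each other list, and 3 on each side of the length limit. Not every peak this rule takes is described, and 1 gene is not reported here. The members over promoter windows, the genes below a ratio of 1 and ADGRG6 were picked with their values in view. The table has 0 columns of other samples. Software was pandas 2.3.3, numpy 2.4.6, matplotlib 3.10.9 and scipy 1.17.1 under Python 3.11.15.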

Additional observations from a re-analysis of the deposited data

How the results depend on the processing

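No paired analysis was possible because each group has 1 library. The number of peaks was 733 at a false discovery rate of at most 0.05, 392 at a fold of at least 3 and 557 in exons with 1 listed form, against 1333. The median deposited fold was then 2.43, 4.09 and 2.62, and 2.50 without folds above 20, against 2.54. Median exon length per peak was 207 bases with a limit of 500 bases and 191 in exons with 1 form, against 294. The median share of the exon covered was 34.2% at a fold of at least 3, 36.5% with a limit of 500 bases and 37.2% in exons with 1 form, against 30.5%. The median log2 ratio of the genes was 0.87 at a false discovery rate of at most 0.05, 0.84 for exons with 1 form, 0.89 and 0.53 with pseudocounts of 0.1 and 5, 0.64 when centred and 1.77 with equal sums of RPKM, against 0.78. The genes at least 2-fold higher were 110 at a fold of at least 3, 148 for exons with 1 form, 123 with a pseudocount of 5 and 907 with equal sums, against 287. Smaller sets of peaks and the scaling itself move these values by construction. The other alternatives, namely 90% of the peak in exons, no shared exon bases, no low-value filter and no RefSeq start or end in the exon, moved none of these results beyond its interval or 1.5 times its count. Alternatives on folds above 20, listed forms and RefSeq starts or ends were chosen after seeing the data. The planned share of exons with a GACGAC-type motif was not run, since no genome was used here. Depth limits the peaks of genes with few input reads, where median deposited p was highest.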

Other observations

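A few of the genes with a peak in a shorter internal exon were lower in the IP as a whole. The interval of the RPKM ratio lay below 1 in 17 of 957 genes (1.78%) and above 1 in 862 (90.1%), against 18.6% and 31.4% of all 14057 genes tested. The 957 were taken without the filter of 1 RPKM, which 949 of them passed. Low read counts were mostly even, so that reads may not be independent and these intervals may be too narrow. CD24, a glycosylated surface protein, had 539 reads in the IP, 675 in the input and a ratio of 0.377 (95% counting interval 0.336 to 0.422), yet held a peak with a deposited fold of 6.24. That peak had a deposited p of 0.0378 and a deposited false discovery rate of 0.0760, which is above 0.05. How deposited folds relate to RPKM ratios is not known. SAT1, the polyamine acetyltransferase, had a ratio of 0.717 and a deposited fold of 2.62, in an exon of 904 bases with a listed intron. CTSE, an aspartic protease, had a ratio of 0.675, and DPP4, a surface peptidase, one of 0.735. HSPH1, a chaperone of the HSP110 family, had a ratio of 0.883 (0.786 to 0.994, so close to 1) and a deposited fold of 3.03 with a p of 8.42e-05. ADGRG6, an adhesion receptor, had 4 peaks and a ratio of 1.08 (0.938 to 1.26).

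Chromosome 19 held 149 of the 1333 peaks (11.2%, exact 95% interval 9.54 to 13.0). It held 9.18% of the other deposited peaks and 4.89% of the internal exons under 1000 bases in genes that averaged 1 RPKM or more. NR1H2, PPP1R37, SUPT5H and MYO9B, described above, all lie on it.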
